A study of Mus musculus with 13 samples.

Results

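The potassium channel genes, taken as every gene whose array symbol starts with Kcn, were measured in whole mouse hippocampus. They were 92 of the 19938 genes tested. Each gene was read from a probe set that carries no other gene symbol, and the brightest over the 13 arrays was used for the 3 genes with more than 1 such probe set (Kcna2, Kcnh8 and Kcnma1). The 92 genes fall into 21 subfamilies by letter, from 15 Kcnj and 14 Kcnk genes to 1 gene each in Kcnb, Kcnf, Kcnma, Kcnrg and Kcnu. RefSeq lists 89 of them as protein-coding, and the other 3 (Kcnd3os, Kcnmb4os1 and Kcnmb4os2) are non-coding transcripts named for the coding gene they lie against.

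The study compared mice that carry a βGeo gene-trap cassette in 1 Kmt2d allele (Kmt2d+/βGeo, a model of Kabuki syndrome, heterozygous in every cell) with wild-type mice, on the C57BL/6J strain, at 1 to 2 months of age and on standard chow. Experiment 2 held 3 Kmt2d+/βGeo and 3 wild-type mice given 3 injections of saline a day, which served as vehicle controls for other work. Experiment 1 held 3 Kmt2d+/βGeo and 4 wild-type mice without injections. The mice are females, apart from 1 wild-type mouse of experiment 1 (replicate 3) of unknown sex. Xist, a transcript of female cells, had the highest genotype difference of all genes in experiment 1 (1.41). The part of sex in the genotype differences was not tested. Each mouse has an array of its own (Affymetrix Mouse Gene 1.0 ST), and all levels below are log2 signals, which can be compared between mice for a gene but not between genes. The number of arrays sets the precision.

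Potassium channels let potassium ions leave the cell, which brings a neuron back to rest after a spike and sets how readily it fires again. Voltage-gated pore subunits (Kcna, Kcnb, Kcnc, Kcnd, Kcnh, Kcnq) open with depolarisation, calcium- and sodium-activated ones (Kcnma, Kcnn, Kcnt) open with ion entry, inward rectifiers (Kcnj) hold the resting potential, and tandem-pore channels (Kcnk) carry leak current. Modifier subunits (Kcnf, Kcng, Kcns, Kcnv) form no channel alone and join Kcnb pores, while Kcnab, Kcne, Kcnip and Kcnmb proteins are accessory subunits.

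Of the 2 probe sets of Kmt2d, 1 was lower in the mutants, at 8.02 ± 0.15 in Kmt2d+/βGeo and 8.53 ± 0.22 in wild-type mice of experiment 2, and at 7.33 ± 0.15 in Kmt2d+/βGeo and 7.88 ± 0.01 in wild-type mice of experiment 1 (SD). The other was at 9.69 ± 0.17 in Kmt2d+/βGeo and 9.63 ± 0.18 in wild-type mice of experiment 2, and at 9.91 ± 0.06 in Kmt2d+/βGeo and 9.82 ± 0.01 in wild-type mice of experiment 1. Pairs of arrays of experiment 2 correlated at 0.985 to 0.994, pairs of experiment 1 at 0.991 to 0.998, and pairs that cross the experiments at 0.936 to 0.958. Wild-type replicate 2 of experiment 1 stood apart: its 9 measured striatal marker genes lay on average 2.38 above the mean of their experiment, against -0.55 to -0.32 on the other arrays of experiment 1.

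Comparing the genotypes over both experiments, no potassium channel gene passed limma's test at an adjusted p of 0.05 (0 of 92, percent called over all genes 0%). At an unadjusted p under 0.05 there were 8 of 92 (8.7%), against 5.25% of all genes. Of these, 5 had the higher values in Kmt2d+/βGeo mice (5.43%, against 2.64% of all genes): Kcnab2, Kcnc2, Kcnmb2, Kcnmb4os1 and Kcnn1. The other 3 had the lower values (3.26%, against 2.61%): Kcnj14, Kcnk5 and Kcnn3. Leaving out each of the 13 arrays in turn gave 5 to 12 such genes (3.99% to 6.55% of all genes), with 5 without wild-type replicate 2 of experiment 2 and 12 without wild-type replicate 1 of experiment 2 or replicate 2 of experiment 1. Of the 8, Kcnc2, Kcnk5, Kcnn1 and Kcnn3 stayed under 0.05 each time, and the other 4 did not. The median difference over the 92 genes was -0.005, against 0.002 over all genes, and 44 of the 92 were above 0 (47.8%, against 51% of all genes). The within-group SD of a potassium channel gene had a median of 0.17 in both groups of experiment 2, 0.10 in Kmt2d+/βGeo and 0.13 in wild-type mice of experiment 1.

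Kcnc2, a voltage-gated subunit whose fast closing lets interneurons fire at high rates, had the lowest p of the 92 genes. Its signal was 10.03, 10.11 and 9.88 in Kmt2d+/βGeo mice and 9.76, 9.47 and 9.60 in wild-type mice of experiment 2. In experiment 1 it was 10.46, 10.51 and 10.36 in Kmt2d+/βGeo mice and 10.25, 9.89, 10.19 and 10.20 in wild-type mice. Every mutant array was above every wild-type array of its experiment. The difference was 0.35 ± 0.07 (SE, 1.28-fold), with an adjusted p of 0.306 in limma and an exact permutation p of 0.00143, the smallest that the 700 regroupings within experiments can give. That exact p is 1 of 47 computed and is not adjusted. The 47 genes were picked partly by their limma p among the 92 on these same arrays. Without wild-type replicate 2 of experiment 1, which held the lowest value of its group, the difference was 0.31.

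Kcnn1, a small-conductance channel that calcium opens through calmodulin and that slows repeated firing, was the other gene whose genotypes separated in the same direction in both experiments. Its signal was 8.33, 8.35 and 8.20 in Kmt2d+/βGeo mice, and 8.01, 8.01 and 8.09 in wild-type mice, of experiment 2. In experiment 1 it was 7.79, 7.83 and 7.83 in Kmt2d+/βGeo mice and 7.66, 7.42, 7.58 and 7.66 in wild-type mice. The difference was 0.25 ± 0.06 (SE, 1.19-fold), with an adjusted p of 0.392 in limma and an exact permutation p of 0.00143. The limits given for the exact p of Kcnc2 hold for that of Kcnn1 too. Kcnn3, of the same subfamily, had a difference of -0.18 ± 0.07 (adjusted p = 0.862 in limma), and Kcnn2 and Kcnn4 did not reach an unadjusted p of 0.05.

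The 250 bases before the first RefSeq start of Kcnc2 (chr10:112269767-112270016, plus strand) and of Kcnn1 (chr8:70863259-70863508, minus strand), both GRCm38.p6, are shown because these were the members whose genotypes separated in the same direction in both experiments. Capitals mark each CG pair, the site of DNA methylation in mammals, which reads the same on both strands.
Kcnc2: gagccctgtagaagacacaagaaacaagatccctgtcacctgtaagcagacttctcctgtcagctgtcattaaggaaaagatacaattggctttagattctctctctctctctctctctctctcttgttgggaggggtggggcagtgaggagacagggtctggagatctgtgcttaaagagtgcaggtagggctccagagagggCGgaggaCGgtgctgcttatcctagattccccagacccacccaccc
Kcnn1: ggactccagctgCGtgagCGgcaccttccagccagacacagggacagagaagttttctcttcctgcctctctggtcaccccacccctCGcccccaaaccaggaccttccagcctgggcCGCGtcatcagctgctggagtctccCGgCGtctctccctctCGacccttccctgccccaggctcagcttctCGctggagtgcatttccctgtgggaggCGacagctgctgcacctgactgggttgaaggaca
The Kcnc2 window holds 2 CG pairs and the Kcnn1 window 10. Of 32851 such windows, 92.1% held at least 1 CG pair and 29.0% held 2 or fewer, while 64.4% held 10 or fewer. The median was 7 over the 95 windows of the 70 potassium channel genes matched and 6 over all windows, so the base content of the Kcnc2 and Kcnn1 windows lies on opposite sides of the middle.

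Genotypes did not overlap in 6 of 92 potassium channel genes in experiment 2 (6.52%, against 9.48% of all genes) and in 7 of 92 in experiment 1 (7.61%, against 7.22%). They separated in the same direction in both experiments for 2 genes, Kcnc2 and Kcnn1 (2.17%, against 0.321% of all genes). They separated in opposite directions for 1 gene, Kcnmb4 (1.09%, against 0.291%). The sign of the difference was the same in both experiments for 45 of 92 genes (48.9%, against 48.2% of all genes).

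**Figure D1:**
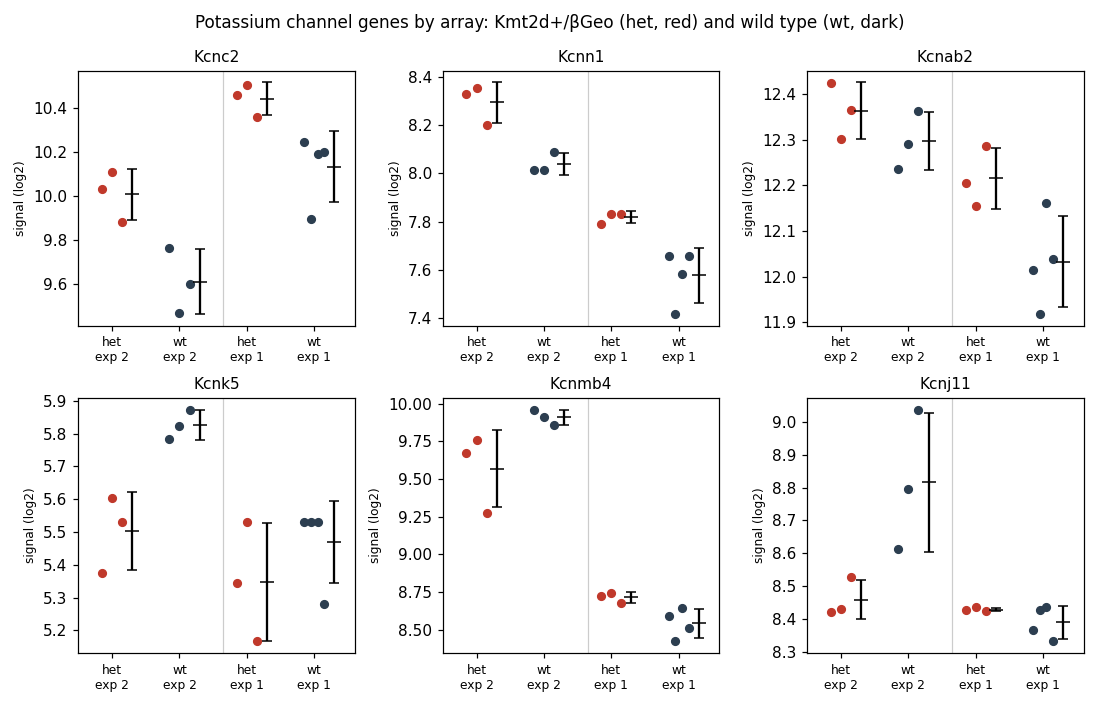
Signal (log2) of 6 potassium channel genes on each array, by genotype (Kmt2d+/βGeo red, wild type dark) and experiment. Points are mice, the bar beside them is the mean ± SD of 3 or 4 arrays, and axes differ between genes and do not start at 0. Kcnc2 and Kcnn1 were higher in every Kmt2d+/βGeo mouse of both experiments, while Kcnmb4 lay below wild type in experiment 2 and above it in experiment 1.

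Of 17 marker lists of cell types and neighbouring regions, each given as its mean deviation from the mean of its experiment, 3 had genotypes that did not overlap in experiment 2 and 4 in experiment 1. The 11 inhibitory neuron markers, the cells in which Kcnc2 is abundant, deviated by -0.12 to 0.02 in Kmt2d+/βGeo and -0.06 to 0.10 in wild-type mice of experiment 2, and by -0.06 to 0.06 in Kmt2d+/βGeo and -0.05 to 0.04 in wild-type mice of experiment 1. Those ranges overlap in both experiments. The 9 markers of the septum, which adjoins the hippocampus, deviated by -0.31 to -0.09 in Kmt2d+/βGeo and 0.10 to 0.25 in wild-type mice of experiment 2, and by -0.34 to -0.31 in Kmt2d+/βGeo and 0.08 to 0.32 in wild-type mice of experiment 1. They did not overlap in either experiment. The lists were chosen with earlier results of these data known. The septum list holds Glp1r, which had the lowest genotype difference of all genes over both experiments (-1.03). The separation of the septum markers is therefore not an independent result. In experiment 2 the markers of pericytes and smooth muscle (-0.15 to -0.04 in Kmt2d+/βGeo and 0.05 to 0.16 in wild-type mice) and of thalamus (-0.15 to -0.03 in Kmt2d+/βGeo and 0.01 to 0.17 in wild-type mice) were also lower in every mutant. In experiment 1 those of dentate granule cells were higher in every mutant (0.16 to 0.24 in Kmt2d+/βGeo and -0.50 to 0.04 in wild-type mice). Those of oligodendrocytes (-0.43 to -0.05 in Kmt2d+/βGeo and 0.05 to 0.26 in wild-type mice) and ependymal cells (-0.42 to -0.15 in Kmt2d+/βGeo and 0.07 to 0.32 in wild-type mice) were lower in every mutant there. The part of these markers in the potassium channel values was not tested. In bulk tissue fewer cells of a type and less RNA per cell cannot be told apart.

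Among the other accessory subunits, Kcnab2, a beta subunit that binds Kcna pores, was at 12.42, 12.30 and 12.37 in Kmt2d+/βGeo and 12.24, 12.29 and 12.36 in wild-type mice of experiment 2. In experiment 1 it was at 12.21, 12.15 and 12.29 in Kmt2d+/βGeo and 12.01, 11.92, 12.16 and 12.04 in wild-type mice. The genotypes overlap in both experiments, and the difference was 0.13 ± 0.06 (SE). Without wild-type replicate 2 of experiment 1 it was 0.11 (unadjusted p = 0.0861 in limma) over both experiments and 0.14 (0.102) in experiment 1, so it no longer passed 0.05 unadjusted. Kcnmb2, which inactivates the large calcium-activated channel, differed by 0.19 ± 0.09, with its lowest value in experiment 1 on wild-type replicate 2 (6.73, against 7.15 to 7.17 on the other wild-type arrays). Without that replicate the difference was 0.14 (unadjusted p = 0.0978 in limma).

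Among the inward rectifiers, 1 of 15 reached an unadjusted p of 0.05 over both experiments, Kcnj14, at -0.22 ± 0.09 (SE). Kcnk5, an acid-sensitive leak channel, was the 1 of 14 tandem-pore genes, at -0.22 ± 0.07. Its signal was 5.37, 5.60 and 5.53 in Kmt2d+/βGeo and 5.78, 5.82 and 5.87 in wild-type mice of experiment 2, and 5.34, 5.53 and 5.17 in Kmt2d+/βGeo and 5.53, 5.53, 5.53 and 5.28 in wild-type mice of experiment 1. The genotypes separate in experiment 2 and overlap in experiment 1. Kcnk5 and Kcnj14 both lie in the dimmest quartile of mean signal over all genes (2.96 to 5.96), which limits their reading. The values of 5.53 that several mice share are exact ties, which the summarisation of probes leaves when it estimates no array effect. Equal values on at least 2 arrays occurred in 30 of the 92 genes, and an SD near 0 in such a group understates the spread between mice.

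Of the sodium-activated channels, Kcnt1 had the lowest difference of the 92 genes, -0.33 ± 0.16 (SE, adjusted p = 0.934 in limma), with overlapping genotypes in both experiments. Its values in wild-type mice of experiment 1 were 8.76, 9.31, 8.65 and 8.51, and replicate 2, the array with high striatal markers, held the highest. Without that array the difference was -0.25. Kcnt2 differed by 0.17 ± 0.08. The Kcna, Kcnd, Kcnh, Kcnip, Kcnq, modifier and Kcne genes held none with an unadjusted p under 0.05 over both experiments, and neither did Kcnb2, Kcnma1, Kcnrg and Kcnu1.

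Within experiment 2, no potassium channel gene passed the adjusted threshold in limma (0 of 92, against 0% of all genes), and 14 had an unadjusted p under 0.05 (15.2%, against 10.2% of all genes). Higher values in Kmt2d+/βGeo mice were seen for 6 (6.52%, against 4.9%), namely Kcnc2, Kcnmb2, Kcnmb4os1, Kcnn1, Kcnq5 and Kcns2. Lower values were seen for 8 (8.7%, against 5.34%), namely Kcnd3os, Kcnf1, Kcnj4, Kcnj11, Kcnj14, Kcnk5, Kcnk15 and Kcnmb4. The count of 14 was 9 without mutant replicate 3 of experiment 2 (7.58% of all genes) and 19 without mutant replicate 1 (17.6% of all genes). Kcnj11, the pore of the channel that ATP closes, had the lowest p. Its signal was 8.42, 8.43 and 8.53 in Kmt2d+/βGeo mice and 8.61, 8.80 and 9.04 in wild-type mice of experiment 2, without overlap. The difference was -0.36 ± 0.10 (SE), with an adjusted p of 0.340 in limma and an exact permutation p of 0.1, the smallest that 3 against 3 can give. In experiment 1 it was 8.43, 8.44 and 8.42 in Kmt2d+/βGeo mice and 8.37, 8.43, 8.44 and 8.33 in wild-type mice, a difference of 0.04.

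Kcnq5, a subunit of the M-current that damps repeated firing, had the highest difference in experiment 2 after Kcnj13. It was at 9.65, 10.17 and 10.38 in Kmt2d+/βGeo mice and 9.75, 9.40 and 9.60 in wild-type mice, and replicate 1 of the mutants lay within the wild-type range. The difference was 0.48 ± 0.16 (SE, adjusted p = 0.372 in limma). Without mutant replicate 1 it was 0.69 with an adjusted p of 0.0446, the only potassium channel gene that passed in experiment 2 under any alternative run, where its adjusted p otherwise went up to 0.916. In experiment 1 its difference was 0.01.

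Within experiment 1, no potassium channel gene passed (0 of 92, against 0.0201% of all genes), and 5 had an unadjusted p under 0.05 (5.43%, against 3.5%). Kcnab2, Kcnc2 and Kcnn1 had higher values in Kmt2d+/βGeo mice (3.26%, against 1.34%) and Kcne2 and Kcnmb1 lower ones (2.17%, against 2.16%). The count of 5 was 3 without mutant replicate 1 of experiment 1 and 9 without mutant replicate 3 of experiment 2, whose array enters through the shared spread (2.18% to 4.27% of all genes over the arrays left out). Kcnmb1, the beta subunit of smooth muscle, was at 7.16, 7.04 and 6.72 in Kmt2d+/βGeo mice and 7.49, 7.10, 7.75 and 7.04 in wild-type mice of experiment 1, with overlap, and differed by -0.37 ± 0.16 (SE). Kcnj3, a G protein-gated rectifier, was next at 0.19 ± 0.09. Its 3 mutant values (10.87, 10.83 and 10.92) were above those of the wild-type mice (10.73, 10.41, 10.79 and 10.81), and without wild-type replicate 2 the difference was 0.10.

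**Figure D2:**
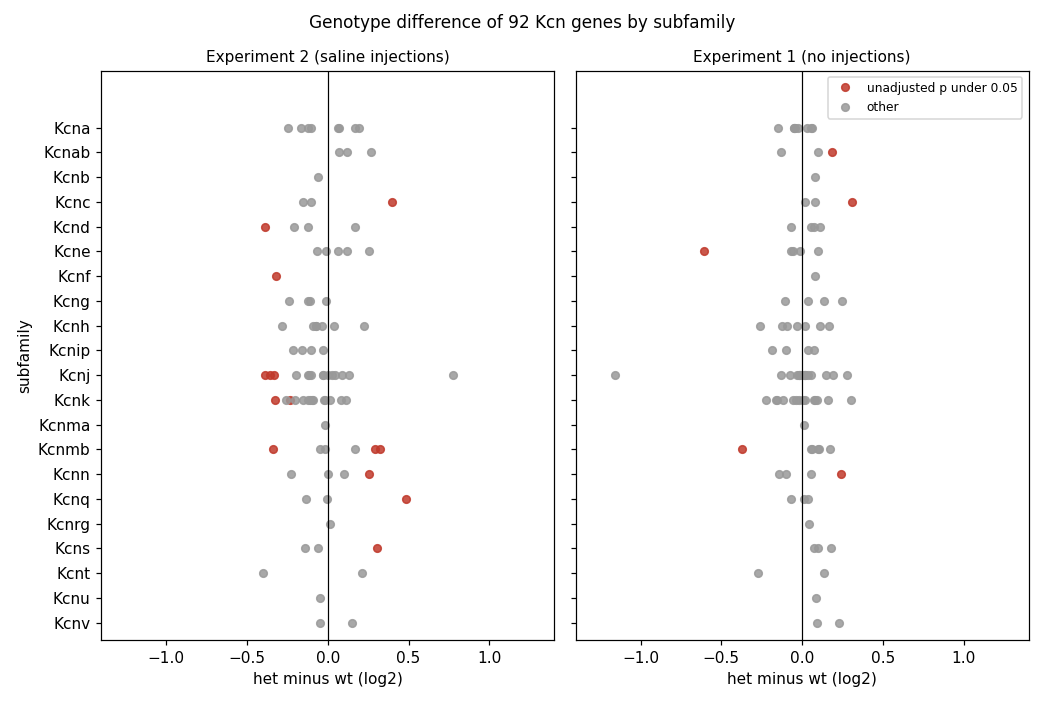
Genotype difference (Kmt2d+/βGeo minus wild type, log2) of each of the 92 potassium channel genes, by subfamily, in experiment 2 (left) and experiment 1 (right). Red points, 14 in experiment 2 and 5 in experiment 1, have an unadjusted p under 0.05 in limma, and none passed after adjustment.

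The difference of the genotype effects between the experiments, tested as an interaction, passed the adjusted threshold for none of the 92 genes in limma (0% of all genes). There were 8 at an unadjusted p under 0.05 (8.7%, against 6.53% of all genes). Kcna10, Kcne2, Kcnmb1 and Kcnq5 were above 0 (4.35%, against 3.24%), and Kcng2, Kcnj11, Kcnk4 and Kcnmb4 below (4.35%, against 3.29%). The count of 8 was 4 without wild-type replicate 3 of experiment 2 and 13 without wild-type replicate 1 of experiment 2. Kcnmb4, the beta subunit of the large calcium-activated channel in neurons, had the lowest p. It was at 9.68, 9.76 and 9.28 in Kmt2d+/βGeo mice and 9.96, 9.91 and 9.86 in wild-type mice of experiment 2, and at 8.73, 8.74 and 8.68 in Kmt2d+/βGeo mice and 8.59, 8.42, 8.64 and 8.51 in wild-type mice of experiment 1. All mutants lay below wild type in experiment 2 and above it in experiment 1, with differences of -0.34 ± 0.11 and 0.17 ± 0.10 (SE). The interaction was -0.51 ± 0.15, with an adjusted p of 0.705 in limma and 0.231 to 0.940 over its alternatives.

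Kcnmb4os1 lies within the span of Kcnmb4 in RefSeq, and Kcnmb4os2 overlaps 1 of its ends. In experiment 2 Kcnmb4os1 was at 6.60, 6.82 and 6.86 in Kmt2d+/βGeo mice and 6.31, 6.34 and 6.65 in wild-type mice, a difference of 0.32 ± 0.12 (SE) that is opposite in sign to that of Kcnmb4. No source used here gives the strand that each probe set reads. The part of the gene and of its antisense partner in each of these values was therefore not tested. Kcnd3os overlaps Kcnd3, a pore of the A-type current, and differed by -0.39 ± 0.17 in experiment 2, where mutant replicate 3 was lowest for both (7.44 for Kcnd3os and 8.94 for Kcnd3).

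Kcnj13 and Kcne2 are, by known biology, genes of the choroid plexus, the tissue that secretes cerebrospinal fluid beside the hippocampus. Kcnj13 encodes an inward rectifier and Kcne2 a small accessory subunit of Kcnq pores there. The 250 bases before the RefSeq start of Kcnj13 (chr1:87394730-87394979, minus strand) and before the first RefSeq start of Kcne2 (chr16:92292139-92292388, plus strand), both GRCm38.p6, are shown because the values of both genes followed the choroid plexus markers. They were searched on both strands for TATAAA, the TATA box, and TAATCC, the letters that the choroid plexus factor Otx2 binds, and capitals mark the match.
Kcnj13: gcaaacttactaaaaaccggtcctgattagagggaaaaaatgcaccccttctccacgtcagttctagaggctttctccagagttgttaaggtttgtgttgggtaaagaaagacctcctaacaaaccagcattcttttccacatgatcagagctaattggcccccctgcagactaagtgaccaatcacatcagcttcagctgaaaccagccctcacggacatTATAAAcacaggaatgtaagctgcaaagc
Kcne2: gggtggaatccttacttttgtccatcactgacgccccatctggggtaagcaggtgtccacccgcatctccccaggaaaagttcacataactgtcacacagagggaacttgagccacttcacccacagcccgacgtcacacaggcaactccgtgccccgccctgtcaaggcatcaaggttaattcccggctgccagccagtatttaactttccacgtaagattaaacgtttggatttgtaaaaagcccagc
The Kcnj13 window holds 1 TATAAA and the Kcne2 window 0, and neither holds TAATCC. The TATA box letters were in 3.2% of potassium channel windows and 12.4% of all windows, and TAATCC in 2.1% of potassium channel windows and 6.3% of all windows. The motifs do not overlap.

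Kcnj13 was at 9.07, 8.0 and 10.28 in Kmt2d+/βGeo mice and 8.75, 9.95 and 6.32 in wild-type mice of experiment 2. In experiment 1 it was at 9.46, 10.05 and 9.80 in Kmt2d+/βGeo mice and 11.24, 9.47, 11.41 and 11.58 in wild-type mice. It had the widest spread of the 92 genes in each of the 4 groups, with an SD of 1.14 in Kmt2d+/βGeo and 1.85 in wild-type mice of experiment 2, and 0.29 in Kmt2d+/βGeo and 0.98 in wild-type mice of experiment 1. The genotypes overlap in both experiments. The differences were 0.78 in experiment 2 and -1.16 in experiment 1, and the interaction was 1.93 ± 1.02 (SE, adjusted p = 0.769 in limma).

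Kcne2 was at 7.57, 7.19 and 7.84 in Kmt2d+/βGeo mice and 7.0, 7.82 and 7.02 in wild-type mice of experiment 2, and at 6.68, 7.06 and 6.96 in Kmt2d+/βGeo mice and 7.71, 6.98, 7.47 and 7.88 in wild-type mice of experiment 1. Its difference in experiment 1 was -0.61 ± 0.22 (SE), not past the adjusted threshold in limma. With array weights it was -0.72 with an adjusted p of 0.0441, the only alternative in which a potassium channel gene passed in experiment 1, and over its alternatives that p went up to 1.

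The 12 measured choroid plexus markers, of 14 listed, moved with both genes. Their mean deviation was 0.18, -0.28 and 0.65 in Kmt2d+/βGeo and -0.19, 0.53 and -0.88 in wild-type mice of experiment 2, and -0.63, -0.35 and -0.62 in Kmt2d+/βGeo and 0.56, -0.60, 0.82 and 0.82 in wild-type mice of experiment 1. Kcnj13, Kcne2 and the marker list were each highest in mutant replicate 3 of experiment 2 and in wild-type replicate 4 or 3 of experiment 1, and wild-type replicate 2 was lowest in its group for all of them. Their part in the values of Kcnj13 and Kcne2 was not tested.

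**Figure D3:**
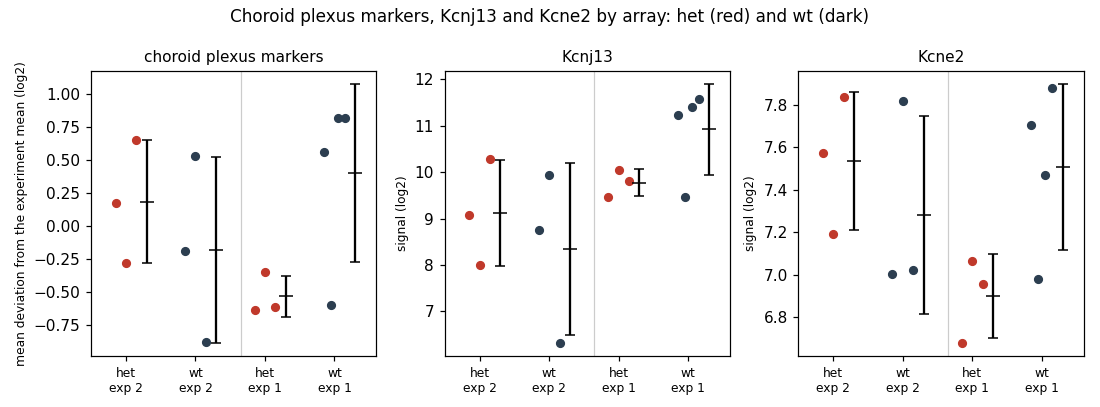
Mean deviation of 12 choroid plexus markers from the mean of their experiment (left, log2) and signal (log2) of Kcnj13 (middle) and Kcne2 (right) on each array, by genotype (Kmt2d+/βGeo red, wild type dark) and experiment. Points are mice and bars are mean ± SD of 3 or 4 arrays. In experiment 1, 3 of the 4 wild-type arrays lay above all mutants for the markers and for both genes.

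Wild-type replicate 2 of experiment 1, with its high striatal markers, held values apart from its group for several members. Kcnj2, a strong inward rectifier, was at 6.77, 6.90 and 6.67 in Kmt2d+/βGeo mice of experiment 1, and in wild-type mice it was at 7.91 on that array and at 6.66, 6.32 and 6.30 on the others. Kcnh4 was at 8.24 there and at 7.20 to 7.33 on the other wild-type arrays, and Kcna5 was at 6.32 there and at 5.28 to 5.53. Over both experiments the Kcnj2 difference was 0.05, and 0.24 without that array. The Kcna5 difference was -0.07, and 0.04 without it.

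Experiment 2 differed from experiment 1 in 71 of the 92 potassium channel genes in limma (77.2%), and so did 77.2% of all genes. Of the 92, 29 rose (31.5%, against 41.8% of all genes) and 42 fell (45.7%, against 35.4%), and the median difference was -0.15 against 0.07 over all genes. The arrays of the experiments did not overlap for 46 of the 92 (50%, against 52.8% of all genes). The saline injections, the array run and any separate normalisation differ together between the experiments and cannot be told apart. The spread over probe sets within an array was 2.13 to 2.17 (SD) in experiment 2 and 2.28 to 2.35 in experiment 1, and the median signal of an array was 7.04 to 7.08 in experiment 2, against 6.74 to 6.90 in experiment 1.

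The scaling of the arrays moved this split. With each array centred on its median, 34 rose (37.0%, against 50.3% of all genes) and 38 fell (41.3%, against 31.3%), and the median of all genes was 0.16. After quantile normalisation of the 13 arrays, 26 rose (28.3%, against 34.8%) and 31 fell (33.7%, against 30.4%). With the same sign in all 3 scalings, 17 rose (18.5%, against 25.6%) and 27 fell (29.3%, against 24%), together 47.8% of the 92 against 49.6% of all genes. Single potassium channel genes named below as rising or falling kept their call and sign in all 3 unless stated. Counts of genes that rose or fell below are from the deposited values unless stated, and not all genes counted kept their call. The partner genes given further below were not compared over the 3 scalings.

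Of the 10 modifier subunits, 2 rose (20%, against 41.8% of all genes) and 7 fell (70.0%, against 35.4%), with a median difference of -0.75. Kcng1 had a lowest, median and highest signal of 7.81, 8.28 and 8.52 over the 6 arrays of experiment 2, against 9.54, 9.81 and 10.16 over the 7 of experiment 1, without overlap. It fell by 1.61 ± 0.12 (SE, 3.05-fold, adjusted p = 5.63e-09 in limma). Kcng2 and Kcng3 fell by 1.52 and 1.27, Kcnv1 fell by 1.42, and Kcns1 and Kcns2 each fell by 0.75. Kcng4, of the same subfamily as Kcng1, rose by 0.32 ± 0.08, at 7.69 to 8.04 in experiment 2 against 7.33 to 7.64 in experiment 1. Kcnf1 fell by 0.29 with the deposited values and was 0.04 after quantile normalisation, and Kcnv2 rose by 0.38 but was not called after it.

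Of the voltage-gated pores, Kcna2, an axonal channel that limits excitability, was at 9.17 to 10.04 in experiment 2 and 10.77 to 11.04 in experiment 1 and fell by 1.22 ± 0.12 (SE). Its other probe set gave -1.78. Kcna1, with which it forms channels, fell by 0.63, and Kcna5, Kcna7 and Kcna10 rose by 0.64, 0.69 and 0.51. All 3 Kcnc genes were lower with the deposited values, by 0.28 to 0.77, and only Kcnc1 kept its call in all 3 scalings. Kcnc2 fell by 0.48 with the deposited values and was -0.08 after quantile normalisation (adjusted p = 0.317 in limma), while its genotype difference was 0.31 to 0.38 over the alternatives run. Kcnq3, an M-current pore, fell by 1.14 ± 0.06, at 9.41 to 9.74 in experiment 2 against 10.61 to 10.79 in experiment 1, and Kcnq5 fell by 0.86. Kcnh7 fell by 1.35 and Kcnh5 by 1.06. With the deposited values Kcnh3 and Kcnh4 did not pass, at -0.05 and 0.29. After quantile normalisation both were called higher, at 0.35 and 0.39, and Kcnh4 was also called with centred arrays (0.38). Kcnh8 was at 0.03 with the probe set used, and was called lower after quantile normalisation, at -0.26. Its other probe set, of nearly the same signal (5.91 against 6.00), gave 0.41 (unadjusted p = 0.000394 in limma). The direction of Kcnh8 was therefore not settled.

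The accessory subunits split. Kcnip3, a calcium-binding partner of Kcnd pores that also acts in the nucleus, was at 9.91 to 10.46 in experiment 2 against 11.71 to 12.02 in experiment 1, and fell by 1.55 ± 0.08 (SE). Kcnip1 fell by 0.68. Kcnip2 did not pass with the deposited values, at -0.06, but was called higher after quantile normalisation, at 0.31. Kcnab1 fell by 0.92, and Kcnab2 rose by 0.21. Kcnmb4 had the largest rise of the 92 genes, 1.13 ± 0.10 (2.18-fold), from the values given above, and was the only potassium channel gene to rise by 1 or more (1.09%, against 2.52% of all genes). Kcnmb3 rose by 0.64 and Kcnmb1 fell by 0.59.

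The calcium-activated Kcnn genes rose together in the deposited values, by 0.47 for Kcnn1, 0.33 for Kcnn4, 0.20 for Kcnn2 and 0.18 for Kcnn3. All but Kcnn4 were called with the same sign in all 3 scalings. Kcnma1, the pore of the large calcium-activated channel, fell by 0.44, which was -0.05 after quantile normalisation. Its other probe set, of much lower mean signal (4.16 against 10.49), gave 0.36, so its direction was not settled. Kcnt2 fell by 1.25.

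Of the 15 inward rectifiers, 6 rose (40%, against 41.8% of all genes) and 7 fell (46.7%, against 35.4%) with the deposited values. In all 3 scalings 3 rose and 4 fell, against 25.6% and 24% of all genes. Kcnj10 and Kcnj16, which form the potassium-buffering channel of astrocytes, fell by 0.79 and 0.76, and Kcnj3 fell by 0.74. Kcnj2 fell by 1.18, and Kcnj12 and Kcnj14 rose by 0.56 and 0.52. Kcnj13 had the largest fall of the 92 genes, 1.69 ± 0.55 (SE), but was not called after quantile normalisation (-1.37, adjusted p = 0.0546 in limma, with adjusted p-values of 0.00151 to 0.0546 over its alternatives). In Kmt2d+/βGeo mice its difference between experiments was -0.65 and in wild-type mice it was -2.59, and the choroid plexus markers differed by a median of 0.09 in Kmt2d+/βGeo and -1.30 in wild-type mice. Among the 14 tandem-pore genes 4 rose (28.6%, against 41.8% of all genes) and 5 fell (35.7%, against 35.4%) with the deposited values. In all 3 scalings 2 of them rose and 4 fell, against 25.6% and 24% of all genes. Kcnk9 fell by 1.26 and Kcnk12 by 1.15, and Kcnk16 and Kcnk7 rose by 0.62 and 0.60.

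**Figure D4:**
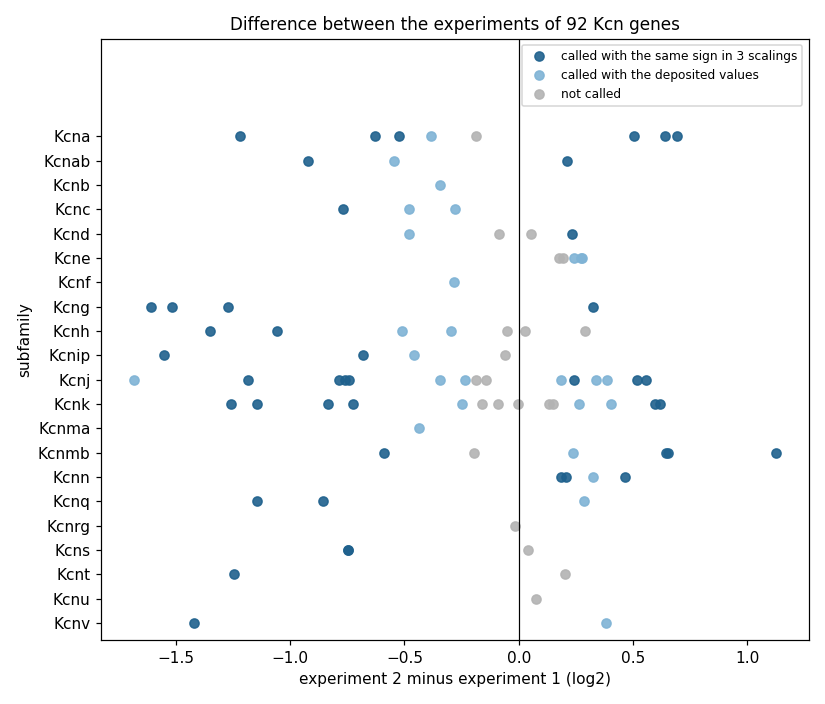
Difference between the experiments (experiment 2 minus experiment 1, log2) of each of the 92 potassium channel genes, by subfamily. Dark points were called with the same sign in all 3 scalings (17 higher and 27 lower), light points with the deposited values, and grey points were not called.

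A change of 1 or more in either direction was seen in 15 of the 92 genes (16.3%, against 11.9% of all genes). The 14 that fell (15.2%, against 9.35%) were Kcna2, Kcng1, Kcng2, Kcng3, Kcnh5, Kcnh7, Kcnip3, Kcnj2, Kcnj13, Kcnk9, Kcnk12, Kcnq3, Kcnt2 and Kcnv1. The difference went with signal. By quartile of mean signal from dim to bright, the median difference of all genes was 0.26, 0.25, -0.21 and -0.41, and that of the 9, 24, 29 and 30 potassium channel genes in them was 0.34, 0.26, -0.30 and -0.57. Most members lie in the bright quartiles, and the part of signal in the fall of single members was not tested.

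**Figure D5:**
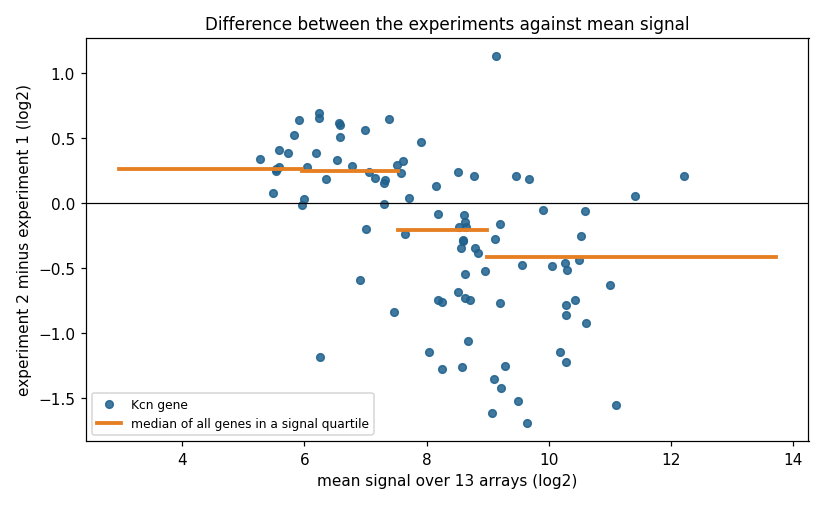
Difference between the experiments (experiment 2 minus experiment 1, log2) against mean signal over 13 arrays (log2). Points are the 92 potassium channel genes and horizontal lines the median of all genes in each signal quartile, 0.26, 0.25, -0.21 and -0.41 from dim to bright.

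Within wild-type mice 64 of 92 genes passed between the experiments (69.6%, against 69.3% of all genes), 27 higher (29.3%, against 37.3%) and 37 lower (40.2%, against 32%). Within Kmt2d+/βGeo mice 57 passed (62.0%, against 62.3%), 18 higher (19.6%, against 31%) and 39 lower (42.4%, against 31.3%). Kcnmb4 rose by 0.85 in Kmt2d+/βGeo mice and by 1.37 in wild-type mice, and Kcng2 fell by 1.78 in Kmt2d+/βGeo mice and by 1.29 in wild-type mice. The difference between those effects is the interaction given above, which did not pass for either gene.

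Partner proteins of the channels and potassium transporters were read from a list of 34 genes, 29 of them measured. None had an unadjusted p under 0.05 for genotype over both experiments in limma, against 5.25% of all genes, and the median difference was -0.02. Between the experiments 3 rose (10.3%, against 41.8% of all genes) and 20 fell (69.0%, against 35.4%), with a median of -0.49, against 0.07 over all genes. Over the 17 marker lists the share called lower went from 0% (striatum) to 80.0% (dentate granule cells and CA1 pyramidal cells). Of the 9 striatal genes 0 were called higher too, and their median difference was -0.25. Wild-type replicate 2 of experiment 1, with its high striatal markers, was kept in that fit. The share called lower was 65.5% over all genes of the brightest signal quartile and 3.15% over those of the dimmest. The part of signal in the fall of the partner genes was not tested. Dpp10, a partner of Kcnd pores, fell by 1.81, Dlg1, a scaffold of Kcna channels, fell by 1.33, and Hcn2, a cation channel open at rest, fell by 0.87. Slc12a2, a sodium, potassium and chloride transporter abundant in choroid plexus, differed between genotypes by 0.47 ± 0.19 (SE) in experiment 2 and by -0.42 ± 0.18 in experiment 1, neither past the adjusted threshold.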

How the data were processed

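The deposited table holds log2 intensities of 35556 probe sets on 13 arrays, which the submitters' processing notes credit to RMA (oligo). The oligo version and whether the authors normalised all arrays in 1 run are not stated. Some exact ties cross the experiments, as for Kcnk5 at 5.53, and whether the probes were summarised together was not tested. Names came from the platform annotation, and members had a single symbol starting with Kcn, all 92 found in RefSeq. Differences were fitted to the deposited log2 values over all 19938 genes with limma 3.58.1 in R 4.3.3 (lmFit, eBayes), as an additive model of experiment and genotype or a model of the 4 groups, with Benjamini-Hochberg adjustment and a threshold of 0.05. Exact permutation tests, two-sided, regrouped genotypes within experiments and can go no lower than 0.1 in experiment 2, 0.0286 in experiment 1 and 0.00143 over both. The code was tested on simulated data. Genes named were, by p, the 12 over both experiments, 6 in each and 4 for the interaction, the 10 that rose and 10 that fell most between experiments, and fixed marker genes; others were named after their values were seen. The members and lists were chosen with earlier results of these data known. Replicate numbers did not pair the mice: same-numbered mutant and wild-type arrays of an experiment correlated at -0.23 to 0.22. The labels do not say that mice of a group came from separate litters or cages, so p-values measure the spread between these mice. No column was left unused (0). Promoter windows are from RefSeq, GRCm38.p6. Alternatives were the choice of probe set, a filter on the lowest 30% of genes, robust and trended eBayes, array weights, 2 scalings, a replicate block, each experiment alone, every probe set, and leaving arrays out.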

Additional observations from a re-analysis of the deposited data

Results flagged for a closer look

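In the 4 wild-type arrays of experiment 1, the only group of a size tested, a single array was flagged for 10 of the 92 potassium channel genes. In 8 of them it was replicate 2. The flag sets the gap between that array and its nearest neighbour against the range of the 4 arrays, whatever the size of the gap. Where no values are tied, chance flags about 1 in 20. Of the genes named, replicate 2 was high for Kcna2 at 11.04 (10.80 to 10.82 on the others) and for Kcnh4 at 8.24 (7.20 to 7.33). It was low for Kcnc2 at 9.89 (10.19 to 10.25), for Kcnj13 at 9.47 (11.24 to 11.58) and for Kcnmb2 at 6.73 (7.15 to 7.17). Replicate 4 was low for Kcnk5 at 5.28, where the other 3 were tied at 5.53. Kcnk3, not among the genes named, was flagged for replicate 2 at 8.61, where the other 3 were tied at 8.62. With the other 3 tied, any gap is flagged however small, so the chance rate does not hold for Kcnk3 and Kcnk5.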

How the results depend on the processing

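No potassium channel gene was called for genotype over both experiments or for the interaction under any alternative run, and 1 was called in experiment 1 with array weights (Kcne2) and 1 in experiment 2 without mutant replicate 1 (Kcnq5). Genes called over both experiments were 0, against 21 with array weights and 0 to 2 leaving out 1 array. In experiment 2 they were 0, against 4 after quantile normalisation and 0 to 91 leaving out 1 array, where potassium channel genes called were 0 to 1. In experiment 1 they were 4, against 163 with array weights, 0 after quantile normalisation, 2 with the arrays of that experiment alone, 0 with every probe set tested and 0 to 48 leaving out 1 array. With replicate number as a block, which does not pair these mice, 1 gene was called in experiment 1, and no potassium channel gene was called for genotype. Between the experiments, genes called were 15385, against 26086 with every probe set tested, and potassium channel genes called were 71, against 57 to 75. Of 1562 recomputed values of named genes, 1522 kept direction and side of the threshold, 16 lost the call, 5 gained it and 19 changed sign.

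The genotype differences over both experiments that changed sign were those of Kcnj2, Kcna5, Kcnj8 and Kcnj10. Leaving out 1 array gave -0.0267 to 0.241 for Kcnj2, -0.132 to 0.0426 for Kcna5 and -0.108 to 0.0381 for Kcnj10. Kcnj2 was also -0.0267 with the replicate block. Array weights gave 0.0828 for Kcna5 and 0.0375 for Kcnj10, and leaving out 3 arrays that stood apart earlier (mutant replicate 3 of experiment 2 and wild-type replicates 2 and 3 of experiment 1) gave 0.0711 for Kcna5, 0.0208 for Kcnj8 and 0.0569 for Kcnj10. Between the experiments, quantile normalisation gave 0.0362 for Kcnf1, 0.127 for Kcnk1 and -0.227 for Kcnu1. Leaving out the 3 arrays gave -0.0139 for Kcne2, and centred arrays gave 0.0761 for Kcnrg. Leaving out 1 array gave -0.0198 to 0.088 for Kcnd2 and -0.0638 to 0.00759 for Kcnrg. The cause was not tested. Dim members are limited by signal: a filter on the lowest 30% of genes left 76 of the 92.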
